A study of Mus musculus with 6 samples.

Results

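The genes described here make, break down, bind and sense retinoic acid. They are 10 genes chosen by name, namely *Aldh1a2* and *Rdh10* (synthesis), *Cyp26a1*, *Cyp26b1* and *Cyp26c1* (decay), *Crabp1* and *Crabp2* (binding) and *Rara*, *Rarb* and *Rarg* (nuclear receptors). All 10 were among the 55401 gene identifiers of the count table, and all 10 were among the 16784 genes with enough reads to be tested, with between 50 and 5755 counts per library. The table came from RNA-seq of whole E10.5 mouse embryos. WT embryos were wild-type, and 5C embryos carried a tandem array of *Mir483* copies at the endogenous *Igf2* locus, the gene that hosts this microRNA. There were 3 libraries of each genotype. By the methods of the study a library held a pair of male embryos, WT and 5C embryos were littermates, and the mice were on a C57BL/6J background. The array was put in place in embryonic stem cells by cassette exchange and reached the offspring through chimeric males, so the 5C embryos trace back to manipulated stem cells.

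Retinoic acid is made from vitamin A in successive oxidations. RDH10 turns retinol into retinaldehyde, and ALDH1A2, which is strong in the trunk mesoderm of the embryo, turns retinaldehyde into retinoic acid. The CYP26 enzymes oxidize retinoic acid further for disposal and keep territories such as the tail bud, the hindbrain and the distal limb low in it, while CRABP1 and CRABP2 hold it in the cytoplasm and the receptors RARA, RARB and RARG, paired with an RXR partner, bind DNA and switch genes on when the ligand is present. The signal patterns the hindbrain, spinal cord, somites, heart and limbs.

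None of the 10 genes passed the test of a difference between 5C and WT embryos, and their levels were alike to within the intervals given here. By edgeR's quasi-likelihood test, 0 of 10 had an adjusted p under 0.05 with a fold change over 1.5, where 0% of all genes tested did, and 0 of 10 had an unadjusted p under 0.05, where 6.02% of all genes did (3.47% lower and 2.55% higher in 5C). The estimates were small in either direction: 4 were below 0 and 6 above, from -0.19 for *Cyp26a1* to 0.13 for *Rarb* on the log2 scale. The median log2 fold change of the 10 genes was 0.04, against -0.00 over all genes tested, and their median absolute log2 fold change was 0.07, against 0.11 over all genes. The genes were not matched for read depth in this comparison, so it does not show that the 10 are steadier than others. The 95% interval of every one of the 10 included 0, and together the intervals reached from 1.40-fold lower to 1.51-fold higher in 5C. These outer limits belong to different genes. On the log2 scale the interval ran from -0.20 to 0.16 for *Rarg* and from -0.44 to 0.59 for *Cyp26c1*. A change inside a gene's own interval was not excluded at this depth and replication. These are bulk samples, in which fewer cells of a type and less RNA per cell cannot be told apart.

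Totals were between 6357343 and 19151368 counts per library, and 3 counts, taken as the smallest detectable level, stood for 0.157 to 0.472 CPM, that is, counts scaled to a common library total. Such floors reflect counting error alone. The edited gene was higher in each 5C library than in each WT library. *Mir483* had 11, 5 and 2 counts in WT replicates 1, 2 and 3 and 85, 51 and 36 counts in 5C replicates 1, 2 and 3, with a log2 fold change of 3.05 ± 0.36 (SE, n = 3 per genotype) and an adjusted p of 0.169, which ranged from 5.2e-16 to 0.838 over the alternatives. These reads stem from longer transcripts around the hairpin, so the mature forms were not measured. Libraries of the same genotype also differed among themselves. The summed level of 12 visceral yolk sac endoderm markers was 6887 CPM in WT replicate 1, 291 in WT replicate 2, 578 in WT replicate 3, 221 in 5C replicate 1, 203 in 5C replicate 2 and 1382 in 5C replicate 3. *Tbx4*, listed as a limb bud marker, stood at 398.5 CPM in WT replicate 3 and between 5.48 and 9.39 CPM elsewhere. The other limb bud markers stood far less apart in that library. *Prrx1* was at 239 CPM there against 204 to 226 elsewhere, and *Fgf10* at 7.18 against 6.87 to 8.12. *Tbx5* was at 9.25 CPM against 5.67 to 8.92, and *Lmx1b* at 13.2 against 6.78 to 12.2. The Y-linked *Ddx3y* was between 41.6 and 55.9 CPM in 4 libraries but at 0.944 CPM in WT replicate 2 and at 0 in 5C replicate 2, although the methods call all embryos male. The part of these differences in the results below was not tested beyond leaving the libraries out.

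The sequences that bear on the comparison are the mature microRNAs made from the inserted hairpin, shown because their seeds (bases 2 to 8, in capitals) decide which transcripts they can pair with. Both are from RefSeq on GRCm38.p6, and both lie on the minus strand of chromosome 7, the 3p form at chr7:142654932-142654952 and the 5p form at chr7:142654968-142654989.
mmu-miR-483-3p: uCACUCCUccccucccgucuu
mmu-miR-483-5p: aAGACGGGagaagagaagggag
A perfect match to the 7 seed bases was searched for on the sense strand of the 3′ UTR of each gene's longest coding transcript in GENCODE's annotation of GRCm38. The match to the 3p seed, AGGAGTG, was present in 0 of the 10 retinoic acid genes, and in 2208 of 21016 coding genes (10.51%) with an annotated 3′ UTR. The match to the 5p seed, CCCGTCT, was present in *Rarg* and *Cyp26b1*, and in 2.66% of the coding genes. These 2 sites are printed as the transcript reads, with the seed match in capitals.
*Rarg* (chr15:102235445-102235467, minus strand): atgtgagcccgagCCCGTCTgta
*Cyp26b1* (chr6:84572041-84572063, minus strand): ctgcggtgtgataCCCGTCTcac
A match is a description of the letters and shows no binding. Neither gene with a 5p match passed the test between genotypes, as given under each gene.

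A second set of sequences is shown because receptors of this family act through it. The receptor heterodimer binds paired half-sites, and the letters searched were AGGTCA or AGTTCA or GGGTCA or GGTTCA, as a direct repeat of any 2 of these with 1, 2 or 5 bases between them, on both strands. The windows were RefSeq promoters on GRCm38.p6, from 250 bases before to 50 bases after a start site, and 8 of the 10 genes had a window, 12 windows in all. A repeat with 5 bases between the half-sites lay in the windows of *Cyp26a1* and *Rarb*, and in 32 of all 32851 windows (0.0974%). Repeats with 1 or 2 bases between were in none of the 12 windows and in 0.222% and 0.268% of all windows. The half-sites are in capitals.
*Cyp26a1* (chr19:37697770-37697798, read on the strand opposite to the gene): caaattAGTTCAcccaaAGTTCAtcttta
*Rarb* (chr14:16575507-16575535, read on the strand of the gene): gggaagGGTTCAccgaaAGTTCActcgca
The first half-site base on the gene's own strand lay 32 bases before the start site of the window in *Cyp26a1* and 53 bases before it in *Rarb*. That start site of *Rarb* lies inside the gene as GENCODE annotates it, whose 5′ end on the minus strand is at 16819156. A match in a window is not a shown binding site, and a window without one says only that these letters are not in it.

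Levels were compared between genes as CPM per kilobase of exon, averaged over the 6 libraries. The binding proteins stood far above the rest. *Crabp1* was at 327 ± 46.8 CPM per kilobase (SD, n = 6) and *Crabp2* at 261 ± 28.8, followed by *Aldh1a2* at 24.3 ± 2.08, and the ratio of *Crabp2* to *Aldh1a2* was between 8.99 and 12.4 in every library. Next came *Rarb* at 11.5 ± 1.05, *Rarg* at 9.45 ± 0.435 and *Rdh10* at 8.13 ± 0.520 CPM per kilobase. The lowest levels belonged to *Cyp26a1* at 6.01 ± 0.673, *Rara* at 5.75 ± 0.810, *Cyp26c1* at 4.72 ± 1.01 and *Cyp26b1* at 2.73 ± 0.352 CPM per kilobase.

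Some neighbours in this order were not separated by their spread. *Crabp1* and *Crabp2* overlapped in range, although *Crabp1* was the higher in 6 of 6 libraries, by 1.15-fold to 1.37-fold. *Cyp26a1* exceeded *Rara* in 2 of 6 libraries, so these levels could not be ordered. *Rara* exceeded *Cyp26c1* in 5 of 6 libraries and *Cyp26c1* exceeded *Cyp26b1* in 5 of 6, both with overlapping ranges. The other 5 neighbouring pairs did not overlap and kept their order in 6 of 6 libraries. The level of *Rarb* carries a limit of the counting: 2020 of its 5265 exon bases (38.4%) lie under exons of genes on the opposite strand, *Top2b* and *Gm48162*, and which strand setting was used in counting is not given in the sources used here. Per kilobase of its other 3245 bases the level of *Rarb* would be 18.7 CPM, still between *Aldh1a2* and *Rarg*. This figure assumes that no read in the shared bases was counted for *Rarb*. If reads of the opposite genes were counted for it, its level would be lower, and its place in the order was not tested for that case. No exon base of the other 9 genes lies under another gene.

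**Figure D1:**
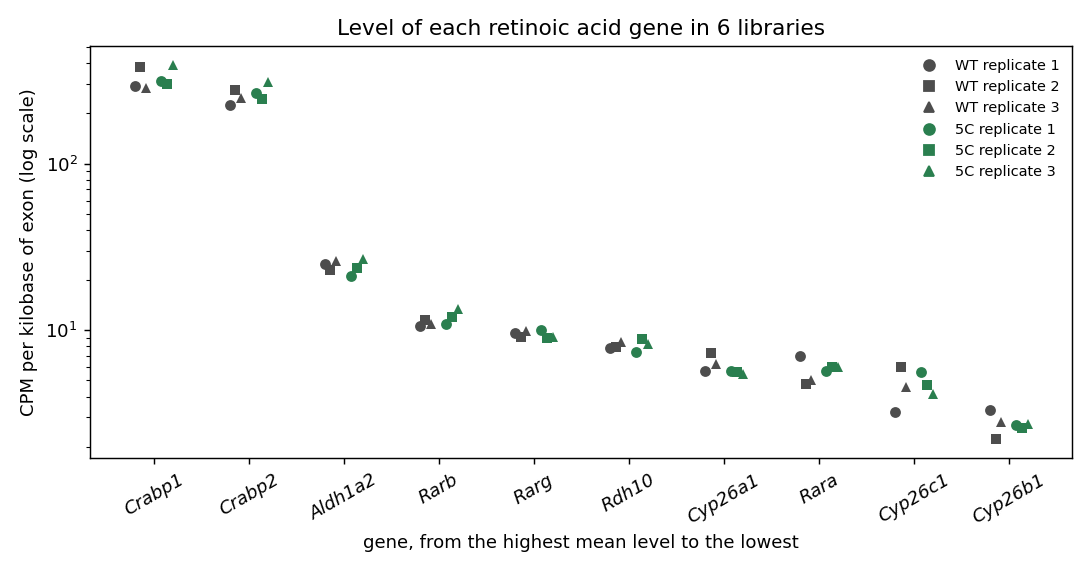
Level of each of the 10 retinoic acid genes in CPM per kilobase of exon (log scale), from the highest mean to the lowest, with 1 point per library, WT in grey and 5C in green and the replicate given by the shape. The binding protein genes Crabp1 (327) and Crabp2 (261) stand apart from Aldh1a2 (24.3) and the 7 genes below it, and WT and 5C points share the same range at most genes.

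Both synthesis genes had estimates within 0.05 of 0 on the log2 scale. *Aldh1a2* (ENSMUSG00000013584, chromosome 9, plus strand, 71215789 to 71296243) makes the retinoic acid of the early trunk. Its level was 56.9, 51.7 and 59.2 CPM in WT replicates 1, 2 and 3 and 48.1, 53.8 and 60.4 CPM in 5C replicates 1, 2 and 3. The lowest and the highest value were both in 5C libraries, so the groups overlapped throughout. Means were 55.9 ± 3.85 CPM in WT against 54.1 ± 6.17 CPM in 5C (SD, n = 3 each), which makes a log2 fold change of -0.05 ± 0.10 (SE) with a 95% interval from -0.27 to 0.17 and an adjusted p of 0.931. *Rdh10* (ENSMUSG00000025921, chromosome 1, plus strand, 16105774 to 16133734) supplies the retinaldehyde that ALDH1A2 uses. It measured 32.7, 32.9 and 35.6 CPM in the WT libraries and 30.7, 36.7 and 34.2 CPM in the 5C libraries. Here too 5C libraries held both ends of the range. The log2 fold change of *Rdh10* was 0.01 ± 0.09 (SE), with an interval from -0.20 to 0.22 and an adjusted p of 0.998, and the sign of this estimate turned when GC content was corrected. Of the summed level per kilobase of both synthesis genes, *Aldh1a2* made up 75.3% ± 0.957 in WT and 74.5% ± 1.78 in 5C (SD, n = 3 each), a difference within the spread of the libraries.

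The decay genes held the only member whose groups did not overlap. *Cyp26a1* (ENSMUSG00000024987, chromosome 19, plus strand, 37697798 to 37701536), the enzyme that clears retinoic acid from the tail bud and is itself induced by retinoic acid, measured 11.3, 14.4 and 12.4 CPM in WT replicates 1, 2 and 3 and 11.3, 11.2 and 10.9 CPM in 5C replicates 1, 2 and 3. Every 5C library lay below every WT library, but WT replicate 1 and 5C replicate 1 were nearly level. Across all genes tested, 11.4% had groups that did not overlap and 5.1% did so with 5C lower and 6.26% with 5C higher, so 1 such gene among 10 is near the background. The means of *Cyp26a1* were 12.7 ± 1.57 CPM in WT against 11.1 ± 0.199 CPM in 5C, a log2 fold change of -0.19 ± 0.13 (SE, n = 3 each) with a 95% interval from -0.48 to 0.10, a p of 0.169 and an adjusted p of 0.781 by edgeR's quasi-likelihood test. Its size rested on WT replicate 2, without which it was -0.09 (unadjusted p = 0.570 by edgeR), although the estimate was below 0 under all 20 alternatives. The repeat of half-sites printed above lies just before the start of this gene.

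*Cyp26b1* (ENSMUSG00000063415, chromosome 6, minus strand, 84571414 to 84593908) encodes the enzyme known from the hindbrain, the limb bud and the fetal testis. It measured 17.7, 11.8 and 15.0 CPM in the WT libraries and 14.5, 13.9 and 14.7 CPM in the 5C libraries. All 3 values in 5C lay inside the WT range. The log2 fold change was -0.05 ± 0.15 (SE), with an interval from -0.39 to 0.28 and an adjusted p of 0.955, and it turned to 0.12 without WT replicate 1 and to 0.00 with GC-content offsets. *Cyp26c1* (ENSMUSG00000062432, chromosome 19, plus strand, 37685581 to 37693398), the neighbour of *Cyp26a1* on the chromosome and a gene of the head and anterior hindbrain, was measured at 5.67, 10.6 and 7.98 CPM in the WT libraries, and the 5C libraries gave 9.82, 8.20 and 7.26 CPM. WT libraries held its lowest and its highest value. With 50 counts in the shallowest library, where counting alone gives a coefficient of variation of 14.1%, its interval was the widest of the 10 genes, from -0.44 to 0.59 around a log2 fold change of 0.08 ± 0.23 (SE, adjusted p = 0.957 by edgeR), and the estimate was -0.16 without WT replicate 1 and 0.35 without WT replicate 2.

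Within the decay family, the share of *Cyp26a1* in the summed level per kilobase did not overlap between genotypes, and the shares of the other genes did. *Cyp26a1* took 46.6%, 46.8% and 46.0% in WT replicates 1, 2 and 3 and 40.6%, 43.6% and 44.3% in 5C replicates 1, 2 and 3. Each 5C library was thus below each WT library, with means of 46.5% ± 0.432 and 42.8% ± 1.98 (SD, n = 3 each), and no test was made of the share. It rests on the same counts as the level of *Cyp26a1* above, so it is not a separate observation. A rate of such shares over all genes was not computed. *Cyp26b1* took 20.6% ± 6.34 in WT and 20.5% ± 1.49 in 5C, and *Cyp26c1* took 32.9% ± 6.25 in WT and 36.6% ± 3.31 in 5C. The shares add up to the whole and that of *Cyp26a1* was nearly level in WT, so those of *Cyp26b1* and *Cyp26c1* had to move in opposite directions there. *Cyp26b1* was at 26.9% and *Cyp26c1* at 26.5% in WT replicate 1, and at 14.3% and 38.9% in WT replicate 2.

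The binding proteins, the most abundant transcripts of the group, varied more between libraries than between genotypes. *Crabp1* (ENSMUSG00000032291, chromosome 9, plus strand, 54764748 to 54773110), known from neural crest and hindbrain, measured 234, 305 and 228 CPM in WT replicates 1, 2 and 3 and 252, 241 and 315 CPM in 5C replicates 1, 2 and 3. *Crabp2* (ENSMUSG00000004885, chromosome 3, plus strand, 87948666 to 87953376), which carries retinoic acid to the receptors, measured 299, 366 and 327 CPM in the WT libraries and 349, 322 and 407 CPM in the 5C libraries. In both genes the highest WT value was in replicate 2 and the highest 5C value in replicate 3, and the groups overlapped. The log2 fold change was 0.07 ± 0.13 for *Crabp1*, with an interval from -0.22 to 0.36 and an adjusted p of 0.914. For *Crabp2* it was 0.12 ± 0.10 (SE), with an interval from -0.11 to 0.35 and an adjusted p of 0.816.

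Libraries decided the size and sign of both estimates. Without WT replicate 2 and 5C replicate 2, the libraries with little *Ddx3y*, the log2 fold change was 0.29 for *Crabp1* and 0.27 for *Crabp2*, with unadjusted p of 0.0478 and 0.0430 by edgeR's test and an adjusted p of 0.837 for each. Without WT replicate 1 and 5C replicate 3, the libraries with the most yolk sac markers, the estimates were -0.11 and -0.05. Adjusted p for *Crabp1* and *Crabp2* was at least 0.529 under every alternative. The ratio of *Crabp1* to *Crabp2* per kilobase was steadier than either gene, at 1.27 ± 0.113 in WT and 1.23 ± 0.0408 in 5C (SD, n = 3 each), and lay between 1.15 and 1.37 in all 6 libraries.

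Among the receptors, *Rara* (ENSMUSG00000037992, chromosome 11, plus strand, 98927818 to 98974942), the broadly expressed form, measured 30.6, 20.8 and 21.9 CPM in WT replicates 1, 2 and 3 and 24.9, 26.1 and 26.3 CPM in 5C replicates 1, 2 and 3. WT replicate 1 was the highest of all and the other WT libraries were the lowest, so that the 5C values fell in the gap between them. The log2 fold change was 0.06 ± 0.14 (SE), with an interval from -0.26 to 0.39 and an adjusted p of 0.939. Without WT replicate 1, the library with a yolk sac marker sum of 6887 CPM, it was 0.28 (unadjusted p = 0.0327, adjusted p = 0.947 by edgeR), and it turned to -0.05 without WT replicate 2 and to -0.01 without WT replicate 3.

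*Rarb* (ENSMUSG00000017491, chromosome 14, minus strand, 16430839 to 16819156), a receptor gene that retinoic acid itself induces, measured 55.5, 61.0 and 57.8 CPM in the WT libraries and 57.1, 62.9 and 70.6 CPM in the 5C libraries. The highest values were in 5C replicates 3 and 2, while 5C replicate 1 lay within the WT range. Its log2 fold change of 0.13 ± 0.09 (SE) was the highest estimate of the 10 genes, with an interval from -0.07 to 0.33, a p of 0.182 and an adjusted p of 0.789. Without 5C replicate 1 it was 0.20 (unadjusted p = 0.0455, adjusted p = 0.575 by edgeR), and without WT replicate 1 and 5C replicate 3 it was 0.01. *Top2b*, the opposite-strand gene whose exons overlap it, stood at 669 ± 11.4 CPM in WT against 761 ± 45.2 CPM in 5C (SD, n = 3 each). That difference, 0.19 on the log2 scale, had an adjusted p of 0.781 (unadjusted p = 0.0219) by edgeR, and the part of its reads in the *Rarb* estimate was not tested. *Rarb* and *Cyp26a1*, the genes with the printed repeat of half-sites, had estimates of opposite sign, and neither passed the test.

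*Rarg* (ENSMUSG00000001288, chromosome 15, minus strand, 102234938 to 102257517), the receptor of skin, cartilage and tail bud, was the steadiest of the 10 genes. It measured 41.0, 38.7 and 42.0 CPM in the WT libraries and 42.7, 38.2 and 39.0 CPM in 5C. The lowest and the highest value both came from 5C, with the WT libraries between them. Its log2 fold change was -0.02 ± 0.08 (SE), with the narrowest interval of the 10 genes, from -0.20 to 0.16, an adjusted p of 0.976 and a sign that turned with GC-content offsets. Within the receptor family *Rarb* made up 42.3% ± 3.40 of the summed level per kilobase in WT and 44.0% ± 3.05 in 5C, *Rarg* 36.4% ± 1.48 and 34.4% ± 2.97, and *Rara* 21.3% ± 3.92 and 21.6% ± 0.581 (SD, n = 3 each).

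**Figure D2:**
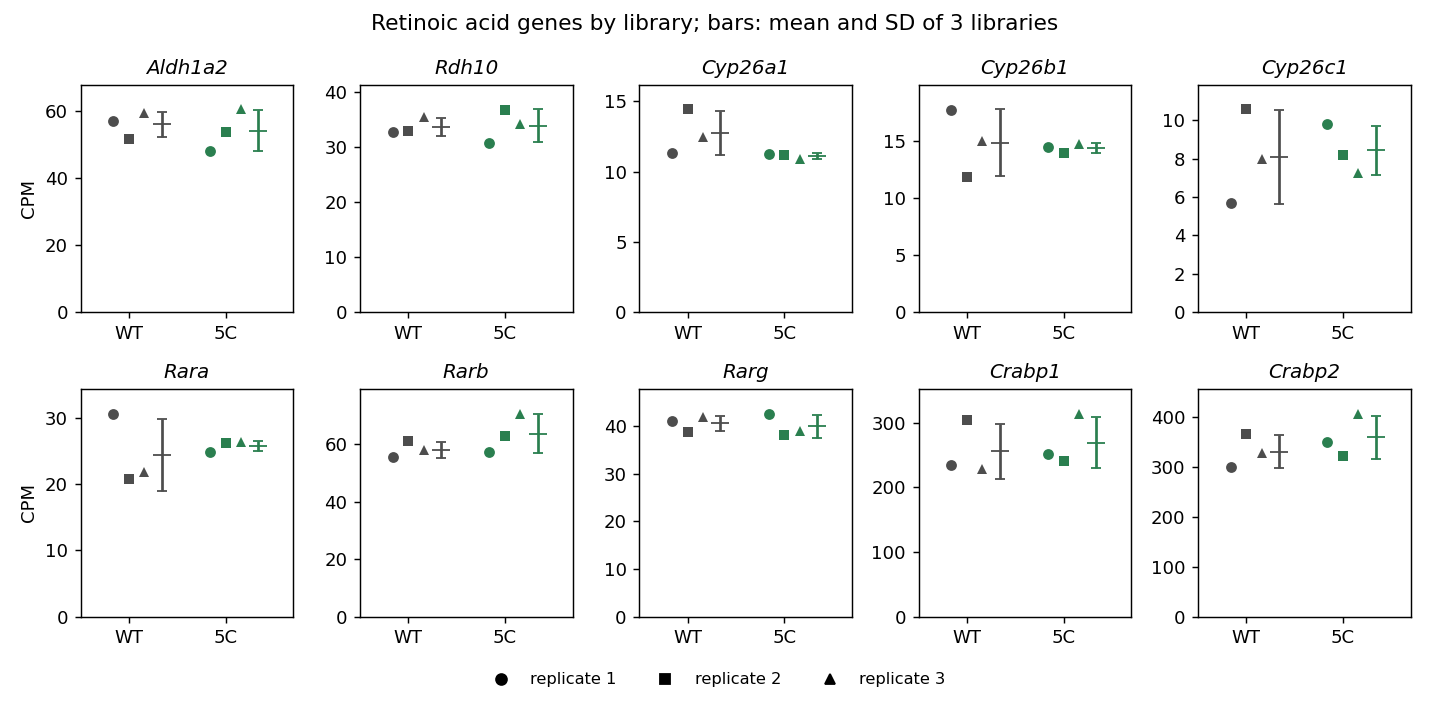
CPM of each of the 10 retinoic acid genes in the 3 WT libraries (grey) and the 3 5C libraries (green), with the replicate given by the shape, the horizontal tick at the mean and the bar 1 SD either side. Groups overlap in every panel except Cyp26a1, where WT replicate 1 and 5C replicate 1 nearly touch, and the WT spread is wide for Rara, Cyp26b1 and Cyp26c1.

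The spread within WT was wider than within 5C for 5 of the 10 genes, the 3 decay genes, *Rara* and *Crabp1*. The coefficient of variation was 22.1% in WT and 3.00% in 5C for *Rara*, 19.7% and 2.92% for *Cyp26b1*, 12.3% and 1.79% for *Cyp26a1*, 30.3% and 15.3% for *Cyp26c1*, and 16.7% and 14.7% for *Crabp1*. It was the wider in 5C for the other 5 genes, with 4.76% in WT and 10.7% in 5C for *Rarb*, 4.79% and 8.88% for *Rdh10*, 6.88% and 11.4% for *Aldh1a2*, 4.11% and 5.90% for *Rarg* and 10.2% and 12.1% for *Crabp2*. WT replicate 1 was the highest library for *Rara* and *Cyp26b1* and the lowest for *Cyp26c1*, *Rarb* and *Crabp2*, and it also had the largest yolk sac marker sum. 5C replicate 3, with the next largest sum, was the highest library for 4 genes, *Aldh1a2*, *Rarb*, *Crabp1* and *Crabp2*, and the lowest for *Cyp26a1*. The shallowest library, WT replicate 3, was the highest for 0 genes and the lowest for 1. Spread was not tested between genotypes.

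**Figure D3:**
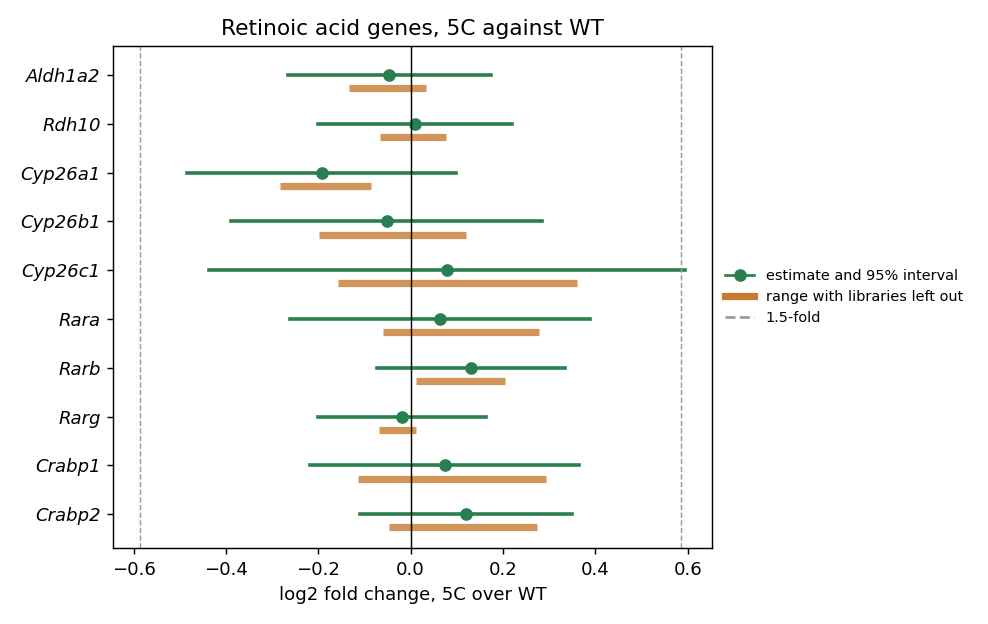
Log2 fold change of 5C over WT for each of the 10 retinoic acid genes, with the estimate and its 95% interval in green, the range of estimates with 1 or 2 libraries left out in orange and 1.5-fold marked by dashed lines. All 10 intervals cross 0, and only that of Cyp26c1 reaches 1.5-fold.

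The other genes of retinoid handling were taken as a list of 44, of which 43 were in the table and 30 had enough reads to be tested. Of these 30, 0 were called, 1 (3.33%) had an unadjusted p under 0.05, against 6.02% of all genes, and 24 estimates (80.0%) were below 0 and 6 above, against 50.7% below 0 over all genes. The median log2 fold change was -0.09, against -0.00 over all genes tested, and 4 of 30 (13.3%) had groups that did not overlap, against 11.4% of all genes. The 13 genes not tested had at most 92 counts in a library and included *Lrat*, *Rbp2* and *Dhrs9*.

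The RXR partners of the receptors did not pass the test either. *Rxra* measured 82.3, 83.4 and 79.0 CPM in the WT libraries and 78.2, 78.8 and 76.7 CPM in 5C, lower in each 5C library by a log2 fold change of -0.07 ± 0.06 (SE, adjusted p = 0.835 by edgeR). *Rxrb* was at 64.8 ± 3.87 CPM in WT against 60.1 ± 6.72 CPM in 5C. *Rxrg*, a rare form at this stage, was at 2.03 ± 0.550 CPM in WT against 2.09 ± 0.0781 CPM in 5C (SD, n = 3 each).

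Genes at the start of the pathway and its alternative enzymes were likewise not called. *Rdh14* was at 12.3 ± 0.922 CPM in WT against 14.8 ± 0.959 CPM in 5C, without overlap, with a log2 fold change of 0.25 ± 0.12 and an adjusted p of 0.781 by edgeR. *Stra6*, the membrane receptor for circulating retinol carrier, had 19.1 ± 3.89 and 15.4 ± 2.79 CPM with overlap (SD, n = 3 each). *Dhrs3*, which turns retinaldehyde back into retinol, had 13.2 ± 3.66 and 12.1 ± 1.14 CPM, *Aldh1a1* had 7.58 ± 2.17 and 7.13 ± 0.722 CPM, and *Aldh1a3* had 14.9 ± 4.27 and 14.7 ± 0.827 CPM, all with overlap. Among the enzymes that make retinoic acid, *Aldh1a2* was thus the most abundant, at 24.3 CPM per kilobase against 3.20 for *Aldh1a3* and 1.49 for *Aldh1a1*.

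The plasma carriers of retinol followed the yolk sac markers, a list that contains them. *Rbp4* measured 95.8, 6.70 and 8.30 CPM in WT replicates 1, 2 and 3 and 3.39, 3.67 and 31.6 CPM in 5C replicates 1, 2 and 3. *Ttr*, which carries RBP4 in plasma, measured 248, 9.19 and 14.5 CPM in the WT libraries and 6.85, 8.96 and 54.8 CPM in the 5C libraries. In both genes the highest WT library was replicate 1 and the highest 5C library was replicate 3, as in the marker sum. The log2 fold changes of -1.58 and -1.99, with an adjusted p of 0.781 for each, turned to 0.81 and 1.03 without WT replicate 1, and were -1.06 and -0.55 without WT replicate 1 and 5C replicate 3, with adjusted p of 0.270 and 0.999. Without a count filter edgeR called both genes, at an adjusted p of 2.6e-35 for *Rbp4* and 1.1e-88 for *Ttr*, and likewise *Afp*, *Apob* and *Tbx4*. All 12 yolk sac markers were highest in WT replicate 1, and all 12 had estimates below 0 in 5C, against 50.7% of all genes. Of the 12, 3 (25%) had an unadjusted p under 0.05 by edgeR. Over all genes 6.02% did, 3.47% lower in 5C. Leading members were *Afp*, at 1142 ± 1689 CPM in WT against 268 ± 315 CPM in 5C, and *Apob*, at 600.1 ± 906 CPM and 100.3 ± 146 CPM (SD, n = 3 each).

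**Figure D4:**
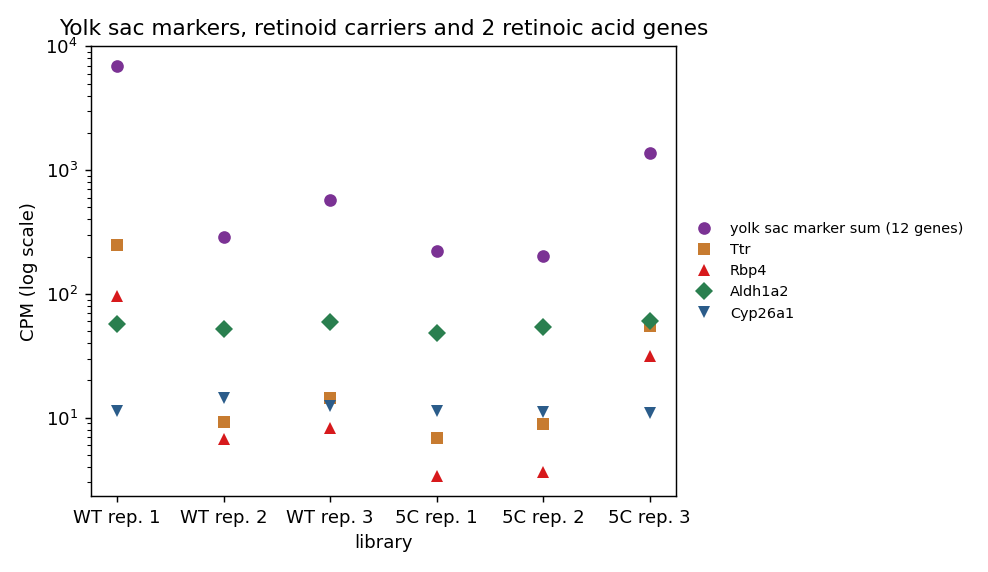
CPM in each library (log scale) of the summed 12 yolk sac markers, the retinol carriers Ttr and Rbp4, and the retinoic acid genes Aldh1a2 and Cyp26a1. The carriers are highest in WT replicate 1 and next in 5C replicate 3, where the marker sum is 6887 and 1382 CPM, whereas Aldh1a2 stays between 48.1 and 60.4 CPM and Cyp26a1 between 10.9 and 14.4 CPM.

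Genes that retinoic acid is known to induce in the embryo were taken as a list of 25, of which 25 were in the table and 23 were tested. Of these, 0 were called, and 1 (4.35%) had an unadjusted p under 0.05 by edgeR, against 6.02% of all genes. In this list 11 estimates were below 0 and 12 above, and the median log2 fold change was 0.01. Groups did not overlap for 4 of 23 (17.4%), against 11.4% of all genes, and *Hoxb2*, *Hoxb3* and *Pax6*, all higher in 5C, were among them. *Hoxb2*, which marks the hindbrain, measured 32.8, 31.6 and 32.9 CPM in the WT libraries and 36.3, 38.9 and 37.2 CPM in 5C. Its log2 fold change was 0.21 ± 0.08 (SE), with an adjusted p of 0.781 (unadjusted p = 0.0244) by edgeR, and the unadjusted p ranged from 0.00810 to 0.164 over 20 alternatives. *Pax6*, of the neural tube and eye, was at 49.2 ± 2.27 CPM in WT against 54.9 ± 1.61 CPM in 5C (SD), with an adjusted p of 0.781 by edgeR. *Hoxa2*, another hindbrain gene, was at 16.4 ± 1.58 and 18.7 ± 0.912 CPM, and *Hoxa5*, of the cervical region, at 20.4 ± 3.12 and 23.8 ± 2.13 CPM, both with overlap. Of the 11 *Hox* genes of this list, 5 estimates were below 0 and 6 above.

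**Figure D5:**
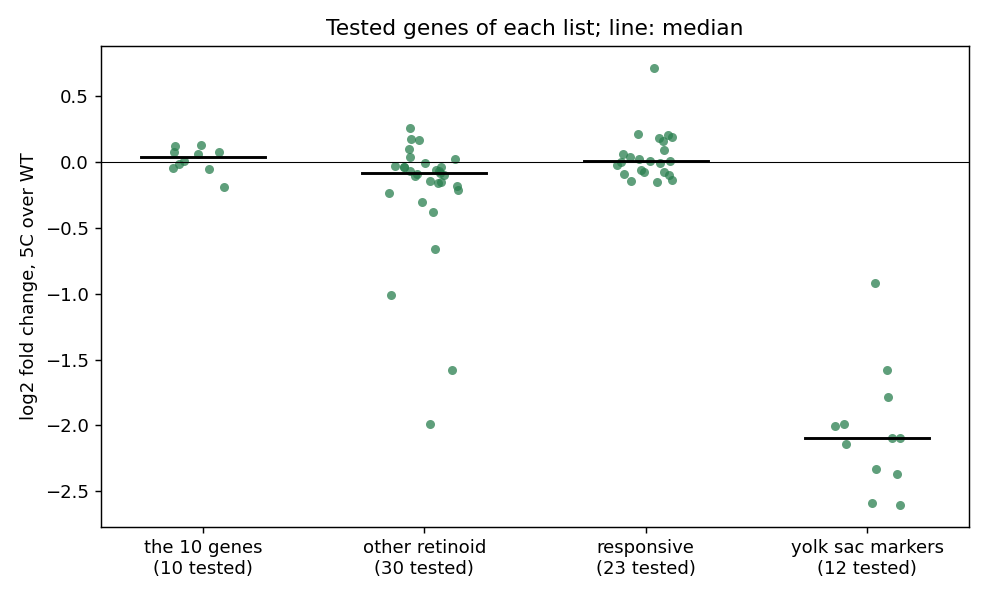
Log2 fold change of 5C over WT for each tested gene, 1 point per gene, in the 10 retinoic acid genes, the 30 other retinoid genes, the 23 responsive genes and the 12 yolk sac markers, with the line at the median (0.04, -0.09, 0.01 and -2.09). The retinoic acid genes lie in a narrow band around 0, and the lowest points among the other retinoid genes are Ttr and Rbp4, which are also yolk sac markers.

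Markers of the tissues in which these genes are expressed gave the following background. The summed level of 5 somite markers was 125 ± 8.57 CPM in WT against 125 ± 9.16 CPM in 5C, and that of 6 tail bud markers 18.3 ± 3.05 and 18.02 ± 2.68 CPM (SD, n = 3 each). Sums of 4 neural tube markers were 634 ± 25.0 and 634 ± 40.1 CPM, of which *Nes* made up 490 ± 17.9 and 469 ± 42.0 CPM. Of the 4, 2 (50%), *Sox2* and *Pax6*, were higher in every 5C library than in every WT library, against 6.26% of all genes. *Pax6* is the same gene as in the list of responsive genes. Sums of 4 neural crest markers were 62.8 ± 4.53 and 65.9 ± 1.02 CPM. An unadjusted p under 0.05 by edgeR was found for 0 of 5 somite, 0 of 5 tail bud and 0 of 4 neural crest markers tested. Of the 4 neural tube markers 1 (25%) had one, where 6.02% of all genes did. It was the neural tube gene *Sox2*, at 78.1 ± 5.92 CPM in WT against 92.7 ± 3.22 CPM in 5C with an adjusted p of 0.781. The sum of 4 epicardium and septum transversum markers, tissues that express *Aldh1a2*, was 61.5 ± 4.16 CPM in WT against 56.4 ± 5.28 CPM in 5C. That of 5 limb bud markers was 382 ± 247 CPM in WT, where *Tbx4* stood out in replicate 3, and 248 ± 13.5 CPM in 5C. Of these 5 markers 1 (20%), *Tbx4*, had an unadjusted p under 0.05 (0.0168 by edgeR, adjusted p = 0.781), lower in 5C with overlapping groups. Over all genes 3.47% were lower in 5C at that limit. Decidua markers, of which 6 of 8 were highest in 5C replicate 3, summed to 42.5 ± 22.3 and 53.9 ± 20.0 CPM, mostly from *Prl8a2* and *Dcn*. Of the 6 tested, 3 (50%) had an unadjusted p under 0.05 by edgeR, all 3 higher in 5C. Over all genes 6.02% did, 2.55% higher in 5C. These 3, *Gzmg*, *Gzmc* and *Gzmf*, had overlapping groups and an adjusted p of 0.781 each. *Gzmg* had 6, 11 and 6 counts in WT replicates 1, 2 and 3 and 40, 8 and 86 in 5C replicates 1, 2 and 3. The 7 hepatoblast markers, which share *Afp* and *Hnf4a* with the yolk sac list, summed to 1209 ± 1747 and 305 ± 328 CPM.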

How the data were processed

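Total RNA of whole E10.5 embryos was made by the authors into poly(A)-selected, strand-specific libraries, read as single-end reads of 40 bases and aligned with STAR to GRCm38. Counts per Ensembl gene were deposited raw, without filter or normalization. The strand column used in counting is not given in the sources used here. Groups and replicate numbers came from the sample titles. Nothing in the titles ties equal numbers to a litter or day, and deviations from the group means correlated at -0.17, 0.20 and -0.17 between same-numbered libraries, so numbers were not taken as pairs. Every pair of libraries differed beyond sampling noise (chi-square per gene at least 5.26), so the 6 count as separate samples.

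Genes were kept by filterByExpr, TMM factors scaled the libraries, and genotypes were compared in edgeR 4.0.16 with its quasi-likelihood F-test (legacy form, R 4.3.3), with p two-sided and adjusted by the Benjamini-Hochberg method over 16784 genes. Genes count as called at an adjusted p under 0.05 together with a fold change over 1.5. CPM used TMM-scaled totals. Log2 fold changes of the fit carry a standard error (their size over the square root of F) and a 95% interval. Symbols, exon lengths and 3′ UTRs came from GENCODE M21 on GRCm38, which held 55141 of 55401 identifiers, and *Rbp5* of the retinoid list was not matched. The script was tested on simulated counts.

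The 10 genes and all gene lists were chosen with earlier results of these data known. Named genes were the 10, *Mir483*, 9 retinoid genes, the 3 others of that list and the 5 responsive genes with the smallest p, and up to 2 of each marker list with the highest mean. *Hoxb3*, *Top2b*, *Gm48162*, *Ddx3y*, *Hnf4a*, *Gzmg*, *Gzmc*, *Gzmf*, *Tbx5*, *Fgf10* and *Lmx1b*, and the untested *Lrat*, *Rbp2* and *Dhrs9*, were named with their values known. Results of some listed genes are not reported here. The alternatives covered other scalings, filters and tests (DESeq2 1.42.0, limma-voom with limma 3.58.1), GC-content offsets, a replicate block, removal of mitochondrial and globin genes, and each library left out. Leaving out WT replicate 1 with 5C replicate 3, and WT replicate 2 with 5C replicate 2, were added after the data were seen.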

Additional observations from a re-analysis of the deposited data

How the results depend on the processing

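The count of retinoic acid genes called was 0 of 10 under all 20 alternatives. The count at an unadjusted p under 0.05 was 0 with every change of scaling, filter or test and ranged from 0 to 2 with libraries left out. Estimates of *Cyp26a1* (below 0) and *Rarb* (above 0) kept their sign throughout, and those of the other 8 genes did not. With GC-content offsets the log2 fold change turned for *Rdh10* (-0.0096), *Cyp26b1* (0.0013) and *Rarg* (0.029), as it did for *Rxrg* (0.023) and *Aldh1a3* (0.011). The replicate block, which the labels do not support as a pairing, gave 782 genes at an unadjusted p under 0.05 in place of 1011, none of them among the 10, and turned *Rxrg* (0.0071) and *Aldh1a3* (0.021). With block and offsets together, *Rdh10* was -0.014, *Cyp26b1* 0.011, *Rarg* 0.028, *Rxrg* 0.053 and *Aldh1a3* 0.042. *Aldh1a3* also turned with library size alone (0.0063), without a count filter (0.0034) and with limma-voom (0.052). The cause was not tested.

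With libraries left out, log2 fold changes ranged from -0.13 to 0.034 for *Aldh1a2*, -0.067 to 0.077 for *Rdh10*, -0.20 to 0.12 for *Cyp26b1*, -0.16 to 0.36 for *Cyp26c1*, -0.059 to 0.28 for *Rara*, -0.068 to 0.011 for *Rarg*, -0.11 to 0.29 for *Crabp1* and -0.047 to 0.27 for *Crabp2*. They ranged from -0.18 to 0.17 for *Rxrg*, -0.35 to 0.13 for *Dhrs3*, -3.45 to 0.81 for *Rbp4*, -0.27 to 0.18 for *Aldh1a1*, -0.24 to 0.26 for *Aldh1a3*, -3.58 to 1.03 for *Ttr*, -3.73 to 0.70 for *Afp*, -5.23 to 0.41 for *Apob* and -4.73 to 0.21 for *Tbx4*, and the sign of *Rbp4*, *Ttr*, *Afp* and *Apob* turned only without WT replicate 1 and that of *Tbx4* only without WT replicate 3.

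Across all genes, 0 were called, against 319 without a count filter, 10 with DESeq2, 3 with robust moderation and 0 to 2 with libraries left out. The count of 0 departs from the study, which did report differentially expressed genes in these embryos by a quasi-likelihood test at the same limits. Why the counts differ was not tested. Of genes at an unadjusted p under 0.05, 57.7% were lower in 5C, against 42.4% with library size alone and 68.1% with block and offsets. Fold changes correlated with transcript GC content (Spearman's rho -0.31 across 16770 genes, which are not independent replicates). With 3 libraries per genotype, and 50 to 78 counts for *Cyp26c1* and *Cyp26a1* in the shallowest, a change inside a gene's own interval was not excluded.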
